A study of Mus musculus with 25 samples.

Results

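The transcription factor NRF2, encoded by Nfe2l2, and the genes that act directly on it were followed through a dose series of hypochlorous acid (HOCl) in mouse macrophages. The members were Nfe2l2, its relative Nfe2l1, the inhibitor Keap1, the small Maf genes Mafg, Maff and Mafk, the competitor Bach1 and the autophagy receptor gene Sqstm1. They were chosen by symbol, as every probe set annotated to 1 of these names, which gave 13 probe sets for 8 genes, of 45037 probe sets and 18193 genes in all.

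In unstressed cells KEAP1 holds NRF2 in the cytoplasm and passes it to a CUL3 ubiquitin ligase for degradation, so NRF2 is controlled mainly as a protein. Oxidants and electrophiles modify cysteines of KEAP1, NRF2 then builds up in the nucleus, pairs with a small Maf protein and binds antioxidant response elements in genes of glutathione, thioredoxin and haem metabolism. BACH1 occupies the same elements with the same small Maf partners and represses them, and p62, the product of Sqstm1, binds KEAP1 and carries it into autophagosomes. In macrophages NRF2 is known for setting antioxidant capacity and for restraining inflammatory gene expression.

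RAW 264.7 cells, a mouse macrophage line, had been kept for 6 h in medium with HOCl, the oxidant that neutrophils form with myeloperoxidase. The 0 mM group had 4 arrays, and 3 arrays each were made at the low doses of 0.14 and 0.35 mM, at 0.7 and 1.4 mM, and at the high doses of 2.1, 2.8 and 3.5 mM. Every dose was given in the same DMEM with 10% fetal serum, HEPES, penicillin and streptomycin. Total RNA was measured on 25 Affymetrix mouse 430 2.0 arrays, and the labels call the replicates biological. All groups share 1 cell line and 1 exposure time, and no dose below or above this range and no later time was analysed here. The question was how transcript levels change with dose, and every dose was set against 0 mM. These 7 comparisons share the 0 mM arrays.

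Values are log2 signals with the median of each array at 0, and the logarithm was taken to be to base 2 from the span of the values. A gene is described by its brightest probe set, and the other probe set is given where there is one. Log2 changes are dose mean minus 0 mM mean with the standard error (SE) of a limma fit to all 25 arrays, and a change was called at an adjusted p under 0.05. The number of arrays limits the precision of every value. In such bulk RNA, fewer cells with a transcript and less of it per cell cannot be told apart.

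Some arrays stood apart. On replicate 1 of 0 mM, 433 probe sets lay more than 1.5 log2 units below every other array, against 0 or 1 on each of the other arrays, and 3 of the 13 member probe sets were among them (Nfe2l2 1416543_at, Keap1 1450746_at and Mafg 1448916_at). Of 376 genes with such a probe set, 309 have a further probe set, and in 307 of these a further one was not so low on that array. Its Gapdh 3′ probe set exceeded the 5′ one by 0.36, whereas on the other arrays that difference lay between -0.11 and -0.01. The part of these features in the results was not tested beyond leaving out that array, and results that rest on it are given with and without it. The 5′ probe sets of Bacillus poly-A control transcripts also divided the arrays, with a mean of at most 1.12 on every 0 mM and every 0.14 mM array and on replicates 1 and 2 of the next 2 doses, and at least 1.75 on the remaining arrays. From 1.4 mM upwards, that level and the dose can be told apart only through replicate 3 of 0.35 and 0.7 mM. All 11 macrophage markers listed were measured, and 5 of them passed the F test. Lyz2, Csf1r, Cd14 and Cd68 lay between 6.58 and 8.35 on every array. Called lower at single doses were Adgre1 (-1.29 at 0.35 mM and -1.07 at 2.1 mM), Spi1 (-0.89 at 1.4 mM and -0.92 at 2.8 mM), Fcgr1 (-1.38 at 2.1 mM) and Ptprc (-0.62 at 2.8 mM), and Cd14 was higher at 0.35 mM (0.66). Their part in the results was not tested. The 8 measured markers of other cell types lay between -1.10 and 1.73, with 4 above the array median on every array (Cd3e, Epcam, Gfap and Krt5) and 2 below it on every array (Mpo and Col1a1). None was called at a single dose, and Mpo passed the F test (adjusted p = 0.0357). At an unadjusted p under 0.05 at most 2 of the 8 passed at any dose.

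Over the 7 doses 4 of the 8 members changed in a limma F test, namely Sqstm1, Mafk, Bach1 and Maff, against 28% of all genes. Nfe2l2, Nfe2l1, Keap1 and Mafg did not pass it. At 0.35 mM 1 of 8 members was higher and none lower, against 2.12% of genes higher and 5.56% lower (7.67% called in all). At 1.4 mM 1 was higher and none lower, against 3.85% of genes higher and 5.06% lower (8.91%). At 2.1 mM 1 was higher and none lower, against 7.32% and 8.2% of genes (15.5%). At 2.8 mM 3 were higher and none lower, against 5.68% and 8.6% of genes (14.3%). At 3.5 mM 2 were lower and none higher, against 4.83% of genes lower and 4.54% higher (9.37%). No member was called at 0.14 mM, where limma called 0.011% of genes, all of them higher (0% lower), or at 0.7 mM, where it called 0.165% (0.148% higher and 0.0165% lower). At an unadjusted p under 0.05, 4 of 8 members and 1601 of 18193 genes passed at 0.14 mM, and 4 members and 2313 genes at 0.7 mM. The members were Nfe2l2, Keap1, Maff and Mafk at 0.14 mM, and Nfe2l2, Keap1, Mafg and Sqstm1 at 0.7 mM. Without replicate 1 of 0 mM the 0.7 mM changes of Nfe2l2, Keap1 and Mafg were 0.21, 0.74 and 0.37, against 0.89, 1.42 and 1.26 with it. At 0.14 mM those of Nfe2l2 and Keap1 were 0.24 and 0.46, against 0.93 and 1.15, so much of their size rested on that array. The median change of the 8 members was 0.03 at 0.14 mM, 0.30 at 0.35 mM, 0.43 at 0.7 mM, 0.94 at 1.4 mM, 0.63 at 2.1 mM, 0.79 at 2.8 mM and -0.10 at 3.5 mM. Without replicate 1 of 0 mM it was -0.08 at 0.14 mM, -0.18 at 0.35 mM, 0.04 at 0.7 mM, 0.31 at 1.4 mM, 0.25 at 2.1 mM, 0.32 at 2.8 mM and -0.52 at 3.5 mM, so its sign at the lowest 2 of these doses and much of its size rested on that array. In the same comparisons all arrays of a dose lay above all 0 mM arrays in 6.76% of genes at 0.35 mM, 4.31% at 0.7 mM, 9.34% at 1.4 mM, 15.8% at 2.1 mM and 11.8% at 2.8 mM, and below them in 5.1% at 0.14 mM and 6.75% at 3.5 mM. Over all genes the median change stayed between -0.01 and 0.10 with all arrays.

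**Figure D1:**
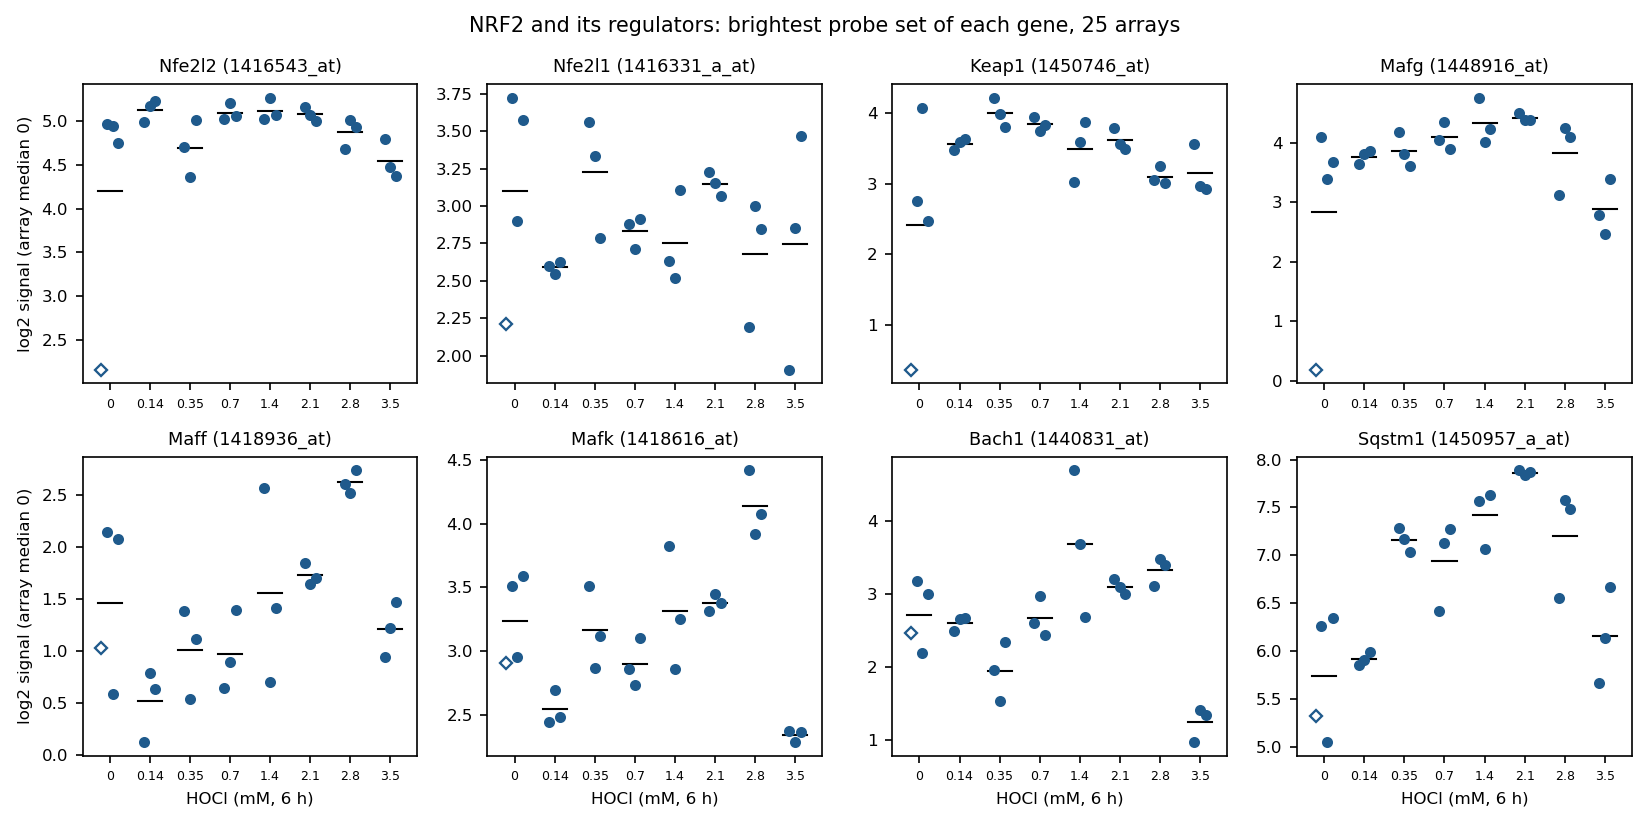
Log2 signal (array median at 0) of the brightest probe set of each of the 8 members against HOCl dose in mM, 1 point per array, with a bar at each dose mean and an open diamond for replicate 1 of 0 mM. Sqstm1 reached 7.84 to 7.89 on the 2.1 mM arrays, Mafk and Maff were highest at 2.8 mM, and Bach1 was lowest at 3.5 mM.

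Antioxidant response elements are the sites that NRF2, BACH1 and their small Maf partners share, so the RefSeq promoters of the members (GRCm38.p6, 250 bases before each annotated start) were searched for their core, TGACNNNGC, on both strands. The 8 genes have 14 such promoters, and 4 of these, of 4 genes, hold 1 match each. Among all 32851 promoters 3338 hold a match (10.2%). They are shown to tell the members with this run of letters in the window searched from those without it, and the capitals mark the match. The windows are chr2:75704664-75704913 (minus strand) for Nfe2l2, chr11:120633548-120633797 (minus) for Mafg, chr15:79346371-79346620 (plus) for Maff and chr5:139791286-139791535 (plus) for Mafk. The window of Sqstm1, chr11:50210821-50211070 (minus), is printed beside them as that of the member called at the most doses, and it holds no match. All are written 5′ to 3′ in the direction of the gene.
Nfe2l2: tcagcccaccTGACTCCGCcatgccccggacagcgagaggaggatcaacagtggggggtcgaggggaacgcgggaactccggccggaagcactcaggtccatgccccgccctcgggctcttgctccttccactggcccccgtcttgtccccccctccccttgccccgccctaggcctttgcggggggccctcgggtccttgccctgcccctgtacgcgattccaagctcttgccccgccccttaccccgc
Mafg: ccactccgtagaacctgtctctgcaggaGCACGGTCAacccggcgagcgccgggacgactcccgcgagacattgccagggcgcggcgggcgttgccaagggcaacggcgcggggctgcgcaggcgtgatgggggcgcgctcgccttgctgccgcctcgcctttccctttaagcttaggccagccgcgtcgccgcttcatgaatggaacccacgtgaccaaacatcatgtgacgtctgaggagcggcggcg
Maff: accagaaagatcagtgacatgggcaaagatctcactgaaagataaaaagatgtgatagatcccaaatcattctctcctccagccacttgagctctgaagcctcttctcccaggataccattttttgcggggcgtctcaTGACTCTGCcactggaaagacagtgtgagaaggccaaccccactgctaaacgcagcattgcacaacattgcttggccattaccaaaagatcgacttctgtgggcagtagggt
Mafk: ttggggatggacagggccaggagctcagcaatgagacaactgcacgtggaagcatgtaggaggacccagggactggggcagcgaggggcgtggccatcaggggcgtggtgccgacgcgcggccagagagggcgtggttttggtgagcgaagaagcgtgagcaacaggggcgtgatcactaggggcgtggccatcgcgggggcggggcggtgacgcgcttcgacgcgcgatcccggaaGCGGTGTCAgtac
Sqstm1: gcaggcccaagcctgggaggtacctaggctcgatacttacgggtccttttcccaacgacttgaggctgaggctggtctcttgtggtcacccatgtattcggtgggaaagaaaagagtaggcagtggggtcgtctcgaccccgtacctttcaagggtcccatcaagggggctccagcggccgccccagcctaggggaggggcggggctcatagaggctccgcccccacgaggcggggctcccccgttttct
The match starts 240 bases before the start in Nfe2l2 (TGACTCCGC), 222 before it in Mafg (GCACGGTCA), 112 before it in Maff (TGACTCTGC) and 13 before it in Mafk (GCGGTGTCA). In Mafg and Mafk the core reads on the opposite strand. The promoters of Keap1, Bach1, Nfe2l1 and the other starts of Maff hold none. A match is a run of letters in this window and says nothing of binding, and its absence says nothing of sites elsewhere.

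Nfe2l2, the gene of NRF2 itself, was called at no dose. Its probe set 1416543_at had 2.16, 4.97, 4.94 and 4.75 at 0 mM, 4.99, 5.17 and 5.23 at 0.14 mM, 4.70, 4.36 and 5.01 at 0.35 mM, 5.03, 5.21 and 5.05 at 0.7 mM, 5.02, 5.26 and 5.07 at 1.4 mM, 5.16, 5.07 and 5.00 at 2.1 mM, 4.68, 5.02 and 4.93 at 2.8 mM, and 4.79, 4.47 and 4.38 at 3.5 mM. Apart from replicate 1 of 0 mM, all arrays lay between 4.36 and 5.26. All arrays of 0.14, 0.7, 1.4 and 2.1 mM lay above all 0 mM arrays, and those of 0.35, 2.8 and 3.5 mM overlapped them. All arrays of a dose lay so in 4.31% of genes at 0.7 mM, 9.34% at 1.4 mM and 15.8% at 2.1 mM. For 0.14 mM no such share is given here, so that separation is not read as a result. The lowest 0.14 mM array was at 4.99, against 4.97 on the highest 0 mM array. At 2.1 mM the change was 0.87 ± 0.42 (SE, n = 3 against 4; 95% interval -0.01 to 1.76; limma, adjusted p = 0.186). Without replicate 1 of 0 mM it was 0.19 ± 0.14 (limma, adjusted p = 0.443). Over the 7 doses the changes without that array ran from -0.34 at 3.5 mM to 0.24 at 0.14 mM, and none was called. The adjusted p of the F test was 0.441 with all arrays.

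The order of the Nfe2l2 dose means was 0.14, 1.4, 0.7, 2.1, 2.8, 0.35, 3.5 and 0 mM from highest to lowest, and no neighbours in it differed past the threshold. The other Nfe2l2 probe set, 1457117_at, was dim, below the array median on all arrays but 1. It had -0.54, -0.72 and -0.66 at 0.35 mM, against -0.18, 0.18, -0.49 and -0.03 at 0 mM. Its change at 0.35 mM was -0.51 ± 0.14 (limma, adjusted p = 0.031, beside 4.72% of probe sets called lower), it was the lowest of its dose means, and it was not called at any other dose. The brighter probe set changed by 0.48 ± 0.42 at that dose, so the probe sets differed in sign there, and by -0.20 ± 0.14 without replicate 1 of 0 mM.

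Nfe2l1 encodes NRF1, a relative of NRF2 that sits in the endoplasmic reticulum membrane and, once processed, drives proteasome genes. Its probe set 1416331_a_at had 2.22, 3.72, 2.90 and 3.57 at 0 mM, 2.60, 2.55 and 2.63 at 0.14 mM, 3.56, 3.33 and 2.79 at 0.35 mM, 2.88, 2.71 and 2.91 at 0.7 mM, 2.63, 2.52 and 3.11 at 1.4 mM, 3.23, 3.15 and 3.07 at 2.1 mM, 2.19, 3.00 and 2.85 at 2.8 mM, and 1.91, 2.86 and 3.47 at 3.5 mM. The arrays of all doses overlapped those of 0 mM. Its changes ran from -0.51 ± 0.33 at 0.14 mM to 0.12 ± 0.33 at 0.35 mM, with an F test adjusted p of 0.591 (limma). At 3.5 mM its 3 arrays spanned 1.91 to 3.47, the widest spread of any dose for 1416331_a_at. The dose means followed the order 0.35, 2.1, 0, 0.7, 1.4, 3.5, 2.8 and 0.14 mM from highest to lowest, without a called difference between neighbours.

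Keap1 encodes the cytoplasmic inhibitor that senses oxidants. Its brighter probe set, 1450746_at, had 0.37, 2.75, 4.07 and 2.47 at 0 mM, 3.47, 3.59 and 3.63 at 0.14 mM, 4.21, 3.99 and 3.80 at 0.35 mM, 3.94, 3.75 and 3.83 at 0.7 mM, 3.02, 3.59 and 3.87 at 1.4 mM, 3.79, 3.56 and 3.49 at 2.1 mM, 3.05, 3.25 and 3.00 at 2.8 mM, and 3.56, 2.96 and 2.93 at 3.5 mM. The 0 mM arrays spread from 0.37 on replicate 1 to 4.07 on replicate 3, and every dose overlapped them. At 0.35 mM the change was 1.58 ± 0.48 (95% interval 0.58 to 2.59; limma, adjusted p = 0.0541), and without replicate 1 of 0 mM it was 0.90 ± 0.29 (adjusted p = 0.0681). Without replicate 3 of 0 mM, the highest array of that group, limma called Keap1 higher at 0.35 mM (2.13, adjusted p = 0.00241) and at each higher dose, down to 1.23 at 2.8 mM (adjusted p = 0.0406). Quantile normalization, centring on array means, the filter on dim probe sets, the trended prior and array weights also gave the call at 0.35 mM. The Keap1 call at that dose thus turned on the processing and on replicate 3 of 0 mM. At the higher doses it was gained only without that array or, up to 2.1 mM, with array weights. The dose means ran from 4.00 at 0.35 mM through 0.7, 2.1, 0.14, 1.4, 3.5 and 2.8 mM to 2.42 at 0 mM, with no called step between neighbours.

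The second Keap1 probe set, 1450747_at, was not low on replicate 1 of 0 mM. Its dose means fell in the order 0.35, 0.7, 0, 0.14, 2.1, 1.4, 3.5 and 2.8 mM. The change was 0.44 ± 0.32 at 0.35 mM (limma, adjusted p = 0.435) and -0.72 ± 0.32 at 2.8 mM (adjusted p = 0.149), where the 3 arrays lay between 1.54 and 1.80, against 1.68 to 3.00 at 0 mM. Both probe sets thus had their highest mean at 0.35 mM, and at 1.4 mM and above they differed in sign against 0 mM. The brighter one changed by 1.08, 1.20, 0.68 and 0.73 at 1.4, 2.1, 2.8 and 3.5 mM. Without replicate 1 of 0 mM these changes were 0.40, 0.51, 0.0005 and 0.05. Its positive sign at 2.8 and 3.5 mM thus rested largely on that array.

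Sqstm1, whose product p62 links ubiquitinated cargo and KEAP1 to the autophagy machinery, was the member called at the most doses. Its probe set 1450957_a_at had 5.32, 6.26, 5.05 and 6.34 at 0 mM, 5.85, 5.90 and 5.99 at 0.14 mM, 7.28, 7.17 and 7.04 at 0.35 mM, 6.42, 7.13 and 7.28 at 0.7 mM, 7.57, 7.07 and 7.63 at 1.4 mM, 7.89, 7.84 and 7.87 at 2.1 mM, 6.55, 7.58 and 7.48 at 2.8 mM, and 5.67, 6.14 and 6.67 at 3.5 mM. All arrays from 0.35 to 2.8 mM lay above all 0 mM arrays, while those of 0.14 and 3.5 mM overlapped them. At 2.1 mM the signal was 7.86 ± 0.03 (SD, n = 3), against 5.74 ± 0.66 at 0 mM (SD, n = 4), a 4.35-fold rise (log2 2.12 ± 0.30 SE; limma, adjusted p = 0.000334). The 3 arrays of 2.1 mM lay closer together than those of any other dose.

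Sqstm1 was also higher at 0.35 mM (log2 1.42, 2.68-fold, adjusted p = 0.0119), at 1.4 mM (1.68, 3.20-fold, adjusted p = 0.00317) and at 2.8 mM (1.46, 2.75-fold, adjusted p = 0.00421) in limma. At 0.7 mM the change was 1.20 ± 0.30 (adjusted p = 0.163), although all 3 arrays lay above all 0 mM arrays. At 3.5 mM the signal was 6.16 ± 0.50, against 5.74 ± 0.66 at 0 mM, a change of 0.41 ± 0.30 (adjusted p = 0.411). Without replicate 1 of 0 mM the same 4 doses were called, with 1.98 at 2.1 mM (adjusted p = 0.00105). Without replicate 2 of 0.35 mM the call at that dose was lost (1.42, adjusted p = 0.0587). With the poly-A control level as a term, the change at 2.1 mM was 1.96 (adjusted p = 0.137) and none of the calls at 1.4 mM and above remained. Among the arrays of the low control level only, Sqstm1 was higher at 0.35 mM (1.48, adjusted p = 0.0462). There that dose had only replicates 1 and 2, against 4 arrays of 0 mM.

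From highest to lowest, the dose means of Sqstm1 were ordered 2.1, 1.4, 2.8, 0.35, 0.7, 3.5, 0.14 and 0 mM. No neighbours in this order differed past the threshold. Between doses further apart, 2.1 mM exceeded 0.14 mM by 1.95 ± 0.33 (adjusted p = 0.000862; 13.8% of genes called in that pair) and 3.5 mM lay below 2.1 mM by -1.71 ± 0.33 (adjusted p = 0.00119; 19.7% of genes). The 0 mM arrays themselves split, with replicates 2 and 4 at 6.26 and 6.34 and replicates 1 and 3 at 5.32 and 5.05.

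The second Sqstm1 probe set, 1444021_at, was dim and spread widely at 0 mM, from -0.82 to 1.65. It passed the F test (limma, adjusted p = 0.0164, as did 24.7% of probe sets) but was called at no single dose against 0 mM. Its dose means were highest at 2.8 mM (1.47) and lowest at 0.14 mM (-0.65), and 2.8 mM exceeded 0.14 mM by 2.12 ± 0.52 (adjusted p = 0.011). At 0.35 mM its change was -0.44 ± 0.48, where the bright probe set was called higher, so the signs differed at that dose.

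**Figure D2:**
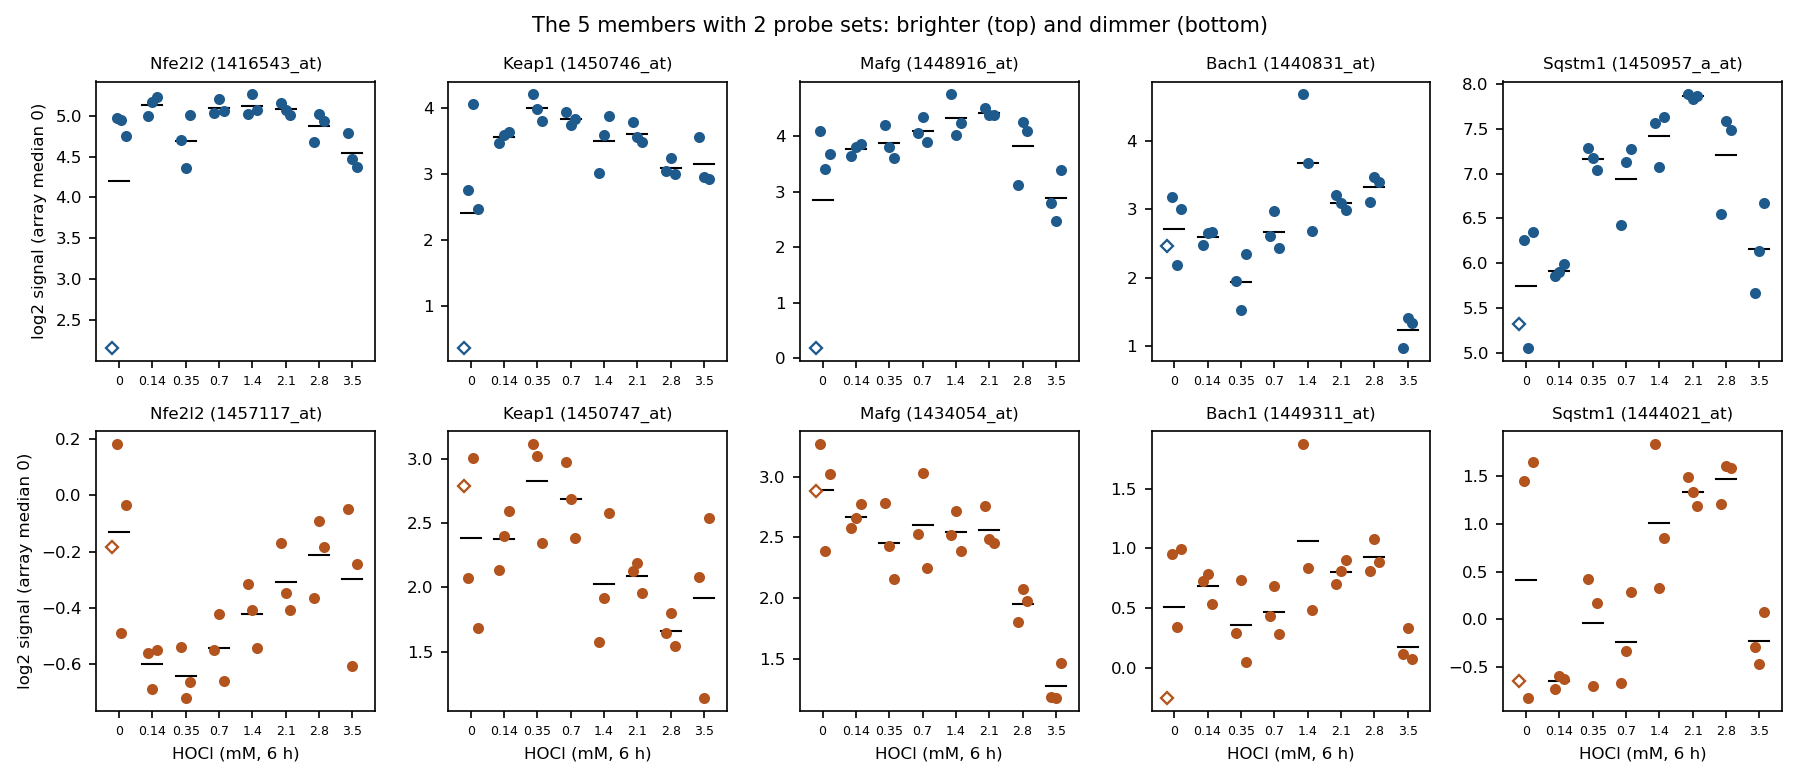
Log2 signal (array median at 0) of both probe sets of the 5 members that have 2, against HOCl dose in mM, with the brighter probe set above and the dimmer one below. Points are arrays, bars are dose means and the open diamond is replicate 1 of 0 mM, which was low in the brighter probe sets of Nfe2l2, Keap1 and Mafg and not in their dimmer ones.

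The small Maf proteins have a DNA-binding region and no activation domain, so they activate when paired with NRF2 or NRF1 and repress when paired with BACH1 or with each other. Mafk moved in both directions. Its probe set 1418616_at had 2.90, 3.51, 2.95 and 3.59 at 0 mM, 2.45, 2.69 and 2.48 at 0.14 mM, 3.51, 2.86 and 3.12 at 0.35 mM, 2.86, 2.74 and 3.10 at 0.7 mM, 3.83, 2.86 and 3.25 at 1.4 mM, 3.32, 3.45 and 3.38 at 2.1 mM, 4.42, 3.92 and 4.08 at 2.8 mM, and 2.37, 2.29 and 2.37 at 3.5 mM. The 2.8 mM arrays all lay above, and the 3.5 mM arrays all below, the 0 mM arrays. Mafk was at 4.14 ± 0.26 at 2.8 mM, against 3.24 ± 0.36 at 0 mM (SD), 1.87-fold higher (log2 0.90 ± 0.20 SE; limma, adjusted p = 0.00692). At 3.5 mM it was at 2.34 ± 0.05, against that same 0 mM level, 1.86-fold lower (log2 -0.90 ± 0.20; adjusted p = 0.00751).

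Both Mafk calls were also made without replicate 1 of 0 mM (0.79, adjusted p = 0.0214, and -1.01, adjusted p = 0.00431). With the poly-A control level as a term they were lost, at 0.78 (adjusted p = 0.242) and -1.01 (adjusted p = 0.0607). The Mafk dose means were ordered 2.8, 2.1, 1.4, 0, 0.35, 0.7, 0.14 and 3.5 mM from highest to lowest, with no called step between neighbours. Further apart, 2.8 mM exceeded 0.14 mM by 1.60 ± 0.22 (limma, adjusted p = 0.00015; 13% of genes called in that pair), 0.35 mM by 0.98 ± 0.22 (adjusted p = 0.0225; 2.37%) and 0.7 mM by 1.24 ± 0.22 (adjusted p = 0.00727; 1.48%). The 0.14 mM arrays lay below all 0 mM arrays too, with a change of -0.70 ± 0.20 that was not called (adjusted p = 0.377).

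Maff was called at 2.8 mM and at no other dose. Its probe set 1418936_at had 1.03, 2.15, 0.59 and 2.08 at 0 mM, 0.13, 0.79 and 0.64 at 0.14 mM, 1.38, 0.54 and 1.12 at 0.35 mM, 0.64, 0.90 and 1.40 at 0.7 mM, 2.57, 0.70 and 1.42 at 1.4 mM, 1.85, 1.64 and 1.71 at 2.1 mM, 2.61, 2.52 and 2.74 at 2.8 mM, and 0.95, 1.23 and 1.48 at 3.5 mM. At 2.8 mM the 3 arrays lay above all 0 mM arrays, among which replicates 2 and 4 stood above replicates 1 and 3. Maff was at 2.62 ± 0.11 at 2.8 mM, against 1.46 ± 0.78 at 0 mM (SD), 2.24-fold higher (log2 1.16 ± 0.37 SE; limma, adjusted p = 0.0467). This call was lost in 21 of 34 alternatives. It was lost without replicate 1 of 0 mM (1.02, adjusted p = 0.114), without replicate 3 of 0 mM (0.87, adjusted p = 0.12) and with the poly-A control level as a term (0.77, adjusted p = 0.527). Between doses, 2.8 mM exceeded 0.14 mM by 2.11 ± 0.40 (adjusted p = 0.00192). The dose means of Maff ran in the order 2.8, 2.1, 1.4, 0, 3.5, 0.35, 0.7 and 0.14 mM, and no neighbours differed past the threshold.

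The probe sets of Mafg disagreed. The brighter one, 1448916_at, had 0.19, 4.10, 3.40 and 3.68 at 0 mM, 3.65, 3.81 and 3.86 at 0.14 mM, 4.19, 3.81 and 3.61 at 0.35 mM, 4.05, 4.35 and 3.90 at 0.7 mM, 4.76, 4.02 and 4.23 at 1.4 mM, 4.50, 4.39 and 4.38 at 2.1 mM, 3.12, 4.26 and 4.10 at 2.8 mM, and 2.79, 2.47 and 3.40 at 3.5 mM. It was highest at 2.1 mM, where all 3 arrays lay above all 0 mM arrays, and the change was 1.58 ± 0.58 (limma, adjusted p = 0.0764). Without replicate 1 of 0 mM, which stood at 0.19, the change at 2.1 mM was 0.70 ± 0.27 (adjusted p = 0.107), and without replicate 2 it was 2.00 (adjusted p = 0.0317). At 3.5 mM the change was 0.04 ± 0.58 with that array and -0.84 ± 0.27 without it (adjusted p = 0.0602), so its sign turned on 1 array. From highest to lowest the dose means of 1448916_at ran 2.1, 1.4, 0.7, 0.35, 2.8, 0.14, 3.5 and 0 mM.

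The other Mafg probe set, 1434054_at, had 2.88, 3.27, 2.39 and 3.02 at 0 mM, 2.58, 2.66 and 2.77 at 0.14 mM, 2.78, 2.43 and 2.15 at 0.35 mM, 2.53, 3.03 and 2.25 at 0.7 mM, 2.52, 2.72 and 2.39 at 1.4 mM, 2.76, 2.48 and 2.45 at 2.1 mM, 1.80, 2.07 and 1.98 at 2.8 mM, and 1.18, 1.18 and 1.46 at 3.5 mM. The 3.5 mM arrays all lay below the 0 mM arrays, as in 6.75% of genes. The 2.8 mM arrays did so too, and for that dose no such share is given here. It fell at 2.8 mM (-0.94 ± 0.19; limma, adjusted p = 0.00338) and at 3.5 mM (-1.62 ± 0.19, 3.07-fold lower; adjusted p = 1.9e-05), beside 6.26% and 5.4% of probe sets called lower at these doses. Both calls were also made without replicate 1 of 0 mM. In its order of dose means (0, 0.14, 0.7, 2.1, 1.4, 0.35, 2.8 and 3.5 mM) the last step, 3.5 mM below 2.8 mM by -0.68 ± 0.20, was called (adjusted p = 0.0346), and among the 13 member probe sets it was the only called step between neighbours. Which parts of the transcript the probe sets cover was not analysed here.

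BACH1 is a haem-sensing repressor that competes with NRF2. Its probe set 1440831_at had 2.46, 3.18, 2.19 and 3.00 at 0 mM, 2.48, 2.65 and 2.67 at 0.14 mM, 1.96, 1.52 and 2.34 at 0.35 mM, 2.60, 2.97 and 2.43 at 0.7 mM, 4.69, 3.68 and 2.68 at 1.4 mM, 3.20, 3.09 and 2.99 at 2.1 mM, 3.10, 3.47 and 3.39 at 2.8 mM, and 0.97, 1.41 and 1.34 at 3.5 mM. The 1.4 mM arrays spread from 2.68 to 4.69, and the 3.5 mM arrays all lay below the 0 mM arrays. At 3.5 mM Bach1 was at 1.24 ± 0.24, against 2.71 ± 0.46 at 0 mM (SD), 2.77-fold lower (log2 -1.47 ± 0.32 SE; limma, adjusted p = 0.0055). The call was also made without replicate 1 of 0 mM (-1.55, adjusted p = 0.00707), and with the poly-A control level as a term it was lost (-1.59, adjusted p = 0.0611).

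At 1.4 mM the change of Bach1 was 0.97 ± 0.32 (limma, adjusted p = 0.0647). It was called without replicate 3 of that dose, the lowest of its 3 arrays (1.48, adjusted p = 0.00654), and without replicate 2 of 0 mM (1.13, adjusted p = 0.0483). It was also called with the filter on dim probe sets, and was not called in the other 31 of 34 alternatives. Without replicate 1 of 1.4 mM, the highest of the 3 arrays, it was 0.47, the lowest value of all alternatives. The Bach1 dose means ran in the order 1.4, 2.8, 2.1, 0, 0.7, 0.14, 0.35 and 3.5 mM, with no called step between neighbours, while 1.4 mM exceeded 0.35 mM by 1.74 ± 0.34 (adjusted p = 0.0257; 1.97% of genes called in that pair). The dimmer probe set 1449311_at followed the same order at its top and bottom ends, from 1.07 at 1.4 mM to 0.18 at 3.5 mM. Its 1.4 mM arrays read 1.87, 0.84 and 0.49, so replicate 1 was the highest in both probe sets. The top of the 2 orders therefore shares that array. The dimmer probe set had no clear change. Against 0 mM it was called at no dose (-0.33 ± 0.28 at 3.5 mM, adjusted p = 0.472).

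**Figure D3:**
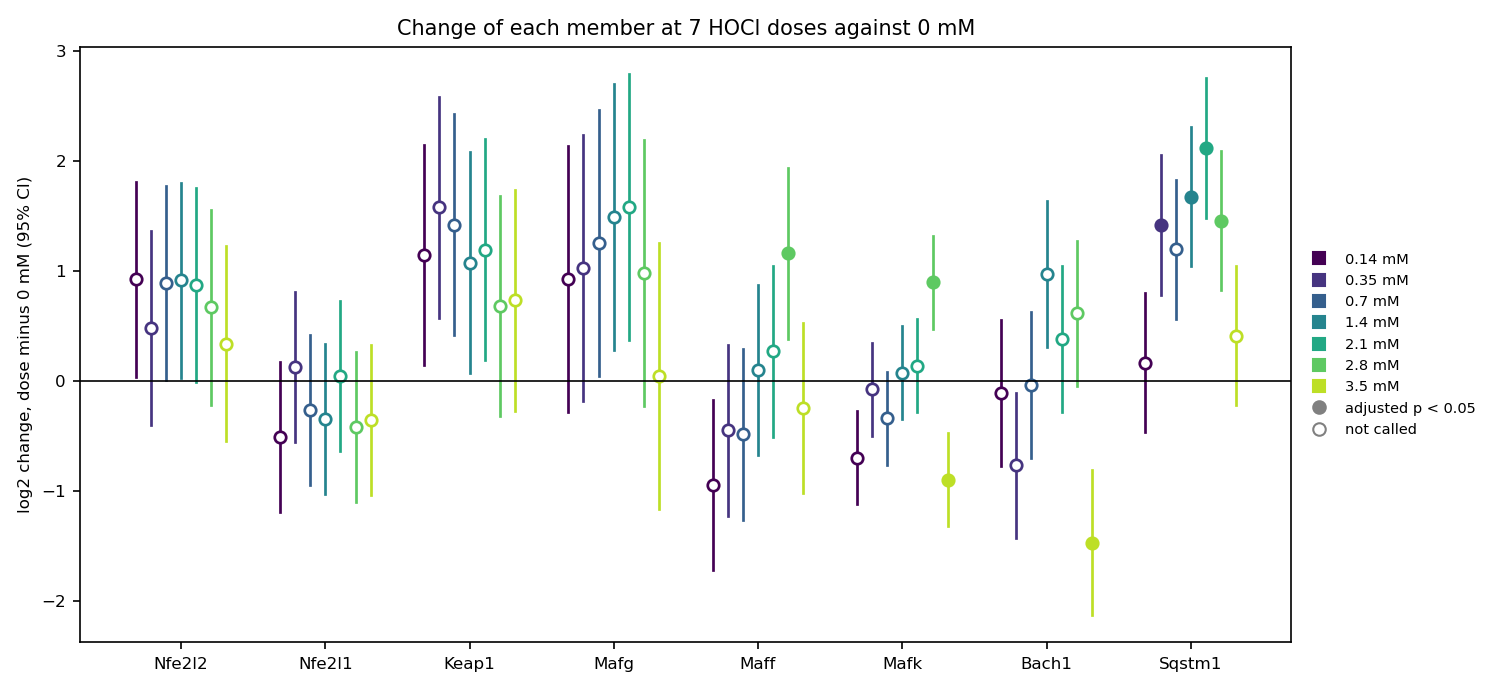
Log2 change of each member (brightest probe set) at each of the 7 doses minus 0 mM, with 95% intervals of the limma fit, from 0.14 mM at the left to 3.5 mM at the right within each gene. Filled points have an adjusted p under 0.05: Sqstm1 at 0.35, 1.4, 2.1 and 2.8 mM, Maff and Mafk at 2.8 mM, and Mafk and Bach1 at 3.5 mM.

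The highest dose and the one below it were set against each other directly, since both lie on 1 side of the poly-A control division and the difference holds no 0 mM value. Its SE is pooled over all arrays, so arrays of other doses can still decide a call. At 3.5 mM, against 2.8 mM, 4 of the 8 members were lower and none higher, against 5.33% of genes lower and 8.81% higher (14.1% called in all). Mafk had 2.37, 2.29 and 2.37 at 3.5 mM, against 4.42, 3.92 and 4.08 at 2.8 mM, a difference of -1.80 ± 0.22 (limma, adjusted p = 3.65e-05). Bach1 had 0.97, 1.41 and 1.34 at 3.5 mM, against 3.10, 3.47 and 3.39 at 2.8 mM, a difference of -2.09 ± 0.34 (adjusted p = 0.000622). In neither gene did the arrays of these doses overlap. For this pair of doses no share of all genes so separated is given here, so a lack of overlap is not read as a result. Both differences were called in all 34 alternatives. None of these used the dimmer Bach1 probe set, 1449311_at. Its difference was smaller, -0.75 ± 0.30, and was not called (limma, adjusted p = 0.117).

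Maff had 0.95, 1.23 and 1.48 at 3.5 mM, against 2.61, 2.52 and 2.74 at 2.8 mM, a difference of -1.41 ± 0.40 (limma, adjusted p = 0.0253), with no overlap. That call was lost when any 3.5 mM array, or replicate 2 or 3 of 2.8 mM, was left out, with adjusted p of at least 0.0519 each time. Sqstm1 had 5.67, 6.14 and 6.67 at 3.5 mM, against 6.55, 7.58 and 7.48 at 2.8 mM, a difference of -1.05 ± 0.33 (adjusted p = 0.0415). Here replicate 1 of 2.8 mM fell within the 3.5 mM range, and the call was lost in 11 of 34 alternatives. Among these were leaving out replicate 2 of 2.8 mM (-0.86, adjusted p = 0.209), replicate 1 of 3.5 mM (-0.80, adjusted p = 0.161), replicate 3 of 2.8 mM, replicate 2 of 3.5 mM or any array of 0.14 or 2.1 mM. Nfe2l2 (-0.33 ± 0.45), Nfe2l1 (0.06 ± 0.35), Keap1 (0.05 ± 0.52) and the brighter Mafg probe set (-0.94 ± 0.62) did not pass. The Mafg difference of -0.94 was called when replicate 1 of 0 mM was left out (adjusted p = 0.0274).

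Genes whose values over the 25 arrays were most like those of each called member were found by Pearson's r among 5082 other genes that passed the F test. The points share dose and array, so r describes likeness and carries no test. Most like Maff were Errfi1 (r = 0.957), Csrnp1 (0.925) and Zfand2a (0.911), and most like Mafk were Mdm2 (0.947), Csrnp1 (0.919) and Zfand2a (0.914). Errfi1 encodes a feedback inhibitor of EGF receptor signalling, Mdm2 the ubiquitin ligase of p53, and Zfand2a an arsenite-inducible zinc-finger protein. Most like Bach1 were Lcor (0.956), Yy1 (0.946) and Brd1 (0.938), each coding for a nuclear regulator of transcription or chromatin. Most like Sqstm1 were the kinase gene Riok3 (0.958), the cystine transporter gene Slc7a11 (0.947) and the prostaglandin synthase gene Ptgs2 (0.915). Without replicate 1 of 0 mM the same genes led, except that Mindy1 (0.923) took the place of Ptgs2.

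The other genes of the pathway were taken from 6 lists, each described by counts at 2.1 mM, where 15.5% of all genes were called, 7.32% higher and 8.2% lower. Of 17 measured KEAP1 partners and genes of NRF2 degradation, 3 were higher and 3 lower, with a median change of -0.06, against 0.00 over all genes. The scaffold gene of the KEAP1 ligase, Cul3, was higher by 0.84 ± 0.23 (limma, adjusted p = 0.0177), or 0.55 without replicate 1 of 0 mM (adjusted p = 0.0306). Skp1, the adaptor of the SCF ligases that also degrade NRF2, was higher by 0.70 ± 0.11 (adjusted p = 0.000662), and by 0.61 with its probe set of largest variance (adjusted p = 0.0712). Park7, which encodes the redox-sensitive protein DJ-1, was lower (-0.93 ± 0.21, adjusted p = 0.00572), as was the SCF receptor gene Btrc (-0.49 ± 0.15, adjusted p = 0.0365), whose call was lost in 9 of 34 alternatives, among them each in which 1 array of 2.1 mM or replicate 2 or 4 of 0 mM was left out. The remaining calls, chosen after their values were seen, were Cul1 (0.70) and Amer1 (-0.39). With the probe set of largest variance in place of the brightest, Cul3 changed by -0.38 (adjusted p = 0.643), so its probe sets disagree. The Cul3 call was also lost without replicate 1 or 2 of 2.1 mM.

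Of 5 measured genes of NRF1 processing, 1 was higher and 1 lower at 2.1 mM (median 0.18). Vcp, the segregase that extracts NRF1 from the endoplasmic reticulum, was higher by 0.92 ± 0.16 (limma, adjusted p = 0.001), or by 0.39 with its probe set of largest variance (adjusted p = 0.337), and the lower one was Btrc, which this list shares with the one above. Of 5 measured relatives of NRF2, BACH1 and the Mafs (Nfe2, Nfe2l3, Bach2, Maf and Nrl), limma called none at any dose or in the F test, and at an unadjusted p under 0.05 there was 1 at 1.4 mM and 1 at 3.5 mM. Nrl had the lowest F test p among them (adjusted p = 0.1) and a change of -0.07 at 2.1 mM, followed by Nfe2, with -0.32. All values of Nrl and Nfe2 lay below the array median.

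Of 8 measured coactivators and corepressors of NRF2, 1 was higher and 1 lower at 2.1 mM (median -0.09). Crebbp, which encodes the acetyltransferase CBP that binds NRF2, was higher by 0.88 ± 0.22 (limma, adjusted p = 0.0118), and the retinoic acid receptor gene Rara was lower (-0.65 ± 0.21, adjusted p = 0.0446). The Crebbp call was lost without replicate 1 of 2.1 mM and with the poly-A control level as a term. The Rara call was lost in 15 of 34 alternatives, among them quantile normalization and leaving out any 2.1 mM array or replicate 1 (adjusted p = 0.118), 2 or 4 of 0 mM. At 3.5 mM Crebbp fell by 1.84 on the log2 scale (adjusted p = 2.46e-05), and its close relative Ep300, named after its value was seen, fell by 1.88 (adjusted p = 5.37e-05). These were the 2 coactivators called at 3.5 mM.

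Of 15 measured partners of p62 in selective autophagy, 4 were higher and none lower at 2.1 mM, with a median of -0.05. They were Gabarapl1 (1.48 ± 0.32, adjusted p = 0.00451), Gabarapl2 (1.73 ± 0.42, adjusted p = 0.0103) and Map1lc3b (0.68 ± 0.18, adjusted p = 0.0164), all of the family of ubiquitin-like proteins that coat autophagosomes and bind p62, and Tbk1 (0.72 ± 0.22, adjusted p = 0.0371), the kinase that phosphorylates p62 (all limma). Gabarapl2 read 1.22 on replicate 1 of 0 mM, where the other 0 mM arrays lay between 3.86 and 4.02, and without that array its change was 1.05 (adjusted p = 0.000372). The Tbk1 call was lost without it (0.64, adjusted p = 0.0897) and in 9 of 34 alternatives in all, among them each that left out replicate 3 of 0 mM or 1 array of 2.1 mM. Map1lc3b had a change of -0.31 (adjusted p = 0.656) by its probe set of largest variance, and its call was also lost without replicate 1 of 2.1 mM. At 3.5 mM none of the 15 was higher and 2 were lower, and these were, named after their values were seen, Wdfy3 (-1.81) and Prkci (-0.68). Gabarapl1 was at -0.01 ± 0.32 relative to 0 mM.

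Of 23 measured target genes of NRF2, 13 were higher and 1 was lower at 2.1 mM. Their median change was 1.16, against 0.63 for the 8 members and 0.00 over all genes. With replicate 1 of 0 mM left out, these medians were 0.96, 0.25 and 0.00. The list was chosen with results of these data known, so its direction is a description. Hmox1, the haem oxygenase that BACH1 also represses, had 7.68, 7.47 and 7.55 at 2.1 mM, against 4.18, 4.24, 3.42 and 4.38 at 0 mM (change 3.51 ± 0.20, adjusted p = 7.76e-09, limma). Gclm, the modifier subunit of glutathione synthesis, had 7.07, 6.98 and 6.96 at 2.1 mM, against 3.79, 3.08, 3.64 and 2.81 at 0 mM (3.67 ± 0.35, adjusted p = 8.27e-06). Neither gene's groups overlapped.

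Srxn1, which encodes the sulfiredoxin that repairs oxidized peroxiredoxins, had 6.40, 6.34 and 6.34 at 2.1 mM, against 2.70, 1.94, 2.20 and 1.78 at 0 mM (4.21 ± 0.39, adjusted p = 8.17e-06). Slc7a11, the cystine importer, had 6.16, 6.09 and 6.07 at 2.1 mM, against 0.56, 1.24, 0.60 and 1.27 at 0 mM (5.19 ± 0.49, adjusted p = 8.17e-06). With the poly-A control level as a term, 8 of the 23 targets were called at 2.1 mM, and no member and no gene of the other 5 lists. The share of all genes called in that fit is not given here, so these counts are descriptions only. At 3.5 mM 2 targets were higher and 1 was lower, with a median of 0.10. Named after their values were seen, these were Taldo1 (0.57), Cbr1 (0.57) and Txnrd1 (-0.86), and the lower one at 2.1 mM was Ephx1 (-1.89). Hmox1 was then at 3.56, 3.83 and 4.07, within the range of the 0 mM arrays, and its change was -0.24 (adjusted p = 0.486). Slc7a11 was at 1.40, 2.05 and 1.85, above all 0 mM arrays, with a change of 0.85 that was not called (adjusted p = 0.281).

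**Figure D4:**
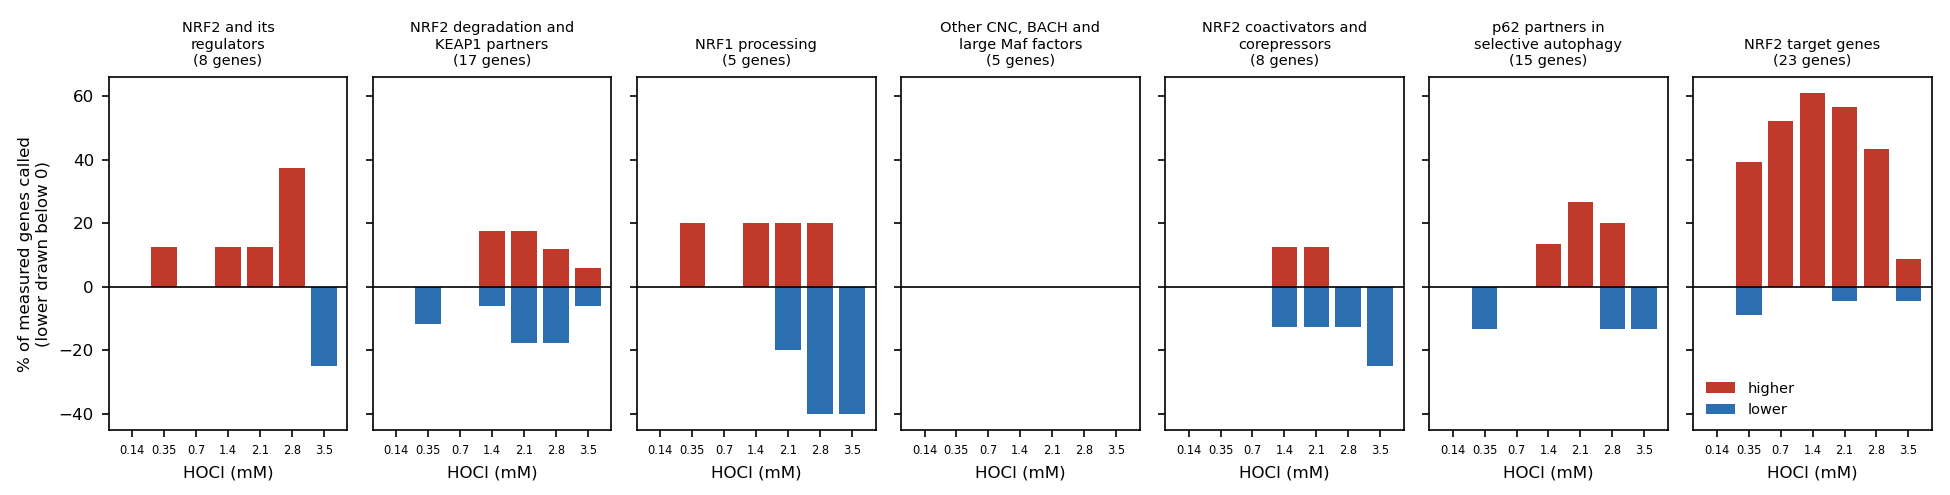
Percent of the measured genes of each list called higher (above 0) or lower (drawn below 0) at each of the 7 doses against 0 mM, for the 8 members and the 6 pathway lists. The target list had 13 of 23 genes higher at 2.1 mM, the members had 3 of 8 higher at 2.8 mM and 2 lower at 3.5 mM, and the list of other CNC, BACH and large Maf factors had none at any dose.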

How the data were processed

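RNA of RAW 264.7 cells was measured on 25 Affymetrix mouse 430 2.0 arrays (4 at 0 mM, 3 at each of 7 HOCl doses; the design text gives 3 replicates). Array Assist is the software the design text names, and RMA the method in the submitters' processing notes, with no version or settings of either given in the sources used here. What the authors deposited is 1 log2 signal for every probe set and array, with each array's median at 0. Base 2 rests on how far the values reach, and array quartiles differ, so no quantile normalization is visible.

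Of 45101 probe sets 64 controls were set aside. No filter on signal was used. A gene was represented by its brightest probe set with 1 symbol (34945 probe sets; 932 had several and 9160 none). Limma 3.58.1 in R 4.3.3 fitted 1 mean per dose to all arrays (17 residual and 2.99 prior degrees of freedom). Tests were two-sided and p-values were adjusted by Benjamini and Hochberg over all 45037 probe sets of each comparison, for 7 doses against 0 mM, an F test and 28 pairs of doses. P-values rest on the spread between arrays of a dose, pooled over doses.

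The members and the gene lists were chosen with earlier results of these data known, so counts over lists are descriptions. Named list genes were those called at 2.1 mM (up to 4 a list, lowest F test p first), or the 2 with the lowest F test p where none was called; a few others are marked as chosen after their values were seen. Promoters were read from RefSeq, GRCm38.p6, with Python 3.11.15. The fit was tested on simulated data with known changes and independent normal noise. Those data held no outlying array and no control level tied to dose, so the test does not cover these features. Alternatives were quantile normalization, centring on array means, a trended and robust prior, a filter on dim probe sets, fits of the compared doses only, array weights, the replicate number as a block, the probe set of largest variance, the poly-A control level (division at 1.44), and leaving out each array in turn.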

Additional observations from a re-analysis of the deposited data

Results flagged for a closer look

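Among the 0 mM groups of the 13 member probe sets and the 17 named list genes, 5 held an array whose gap to the nearest other, divided by the range of the group, exceeded Dixon's 95% limit for 4 values. About 1 in 20 such groups would by chance. Nfe2l2 1416543_at read 2.16 on replicate 1, against 4.75 to 4.97 on the other 0 mM arrays (ratio 0.921). Gabarapl2 read 1.22 on the same array, against 3.86 to 4.02 (ratio 0.941), and Cul3 read 3.11 there, against 4.21 to 4.36 (ratio 0.881). Nfe2 was higher on it, at -0.59, against at most -0.93 (ratio 0.83). Map1lc3b was low on another array, with 4.70 on replicate 3, against at least 5.32 (ratio 0.895). The brighter Mafg probe set, at 0.19 on replicate 1, fell just short of the limit (ratio 0.821). Groups of 3 arrays were not examined this way.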

How the results depend on the processing

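Over all 8 members, 7 doses and the step to 3.5 mM, 2065 of 2200 recomputed changes kept their sign and their side of the threshold, 51 lost a call, 33 gained one, 50 uncalled ones changed sign and 1 called change turned, that of Sqstm1 at 0.35 mM by its probe set of largest variance (-0.44, adjusted p = 0.627). Among list genes at 2.1 mM, that probe set also turned Cul3 (-0.38) and Map1lc3b (-0.31). With it, members called were 0 at 0.35, 1.4 and 2.1 mM. At 0.35 mM quantile normalization, centring on means, the filter on dim probe sets and the trended prior each gave 2 members, and the filter also gave 2 at 1.4 mM. Fits of only the compared doses gave 0 members at 0.35, 1.4 and 2.8 mM, and 8, 0, 11 and 11 list genes at 0.35, 0.7, 1.4 and 2.8 mM, against 16, 12, 23 and 22 in the fit of all arrays; with fewer arrays they have fewer degrees of freedom. The poly-A control level as a term gave 0 members at 1.4, 2.1, 2.8 and 3.5 mM and 5, 8 and 4 list genes at 1.4, 2.1 and 2.8 mM (23, 27 and 22 without it). From 1.4 mM upwards this level and the dose are told apart only through replicate 3 of 0.35 and 0.7 mM. A call lost with the term therefore cannot tell the level from the dose, and the cause was not tested. No share of all genes called with the term is given here. Among arrays of the low control level, which hold only replicates 1 and 2 of 0.35 mM, 10 list genes were called at that dose. Array weights, whose estimation stopped before convergence, gave 4 members at 0.14 mM, 5 at 0.35 mM, 4 at 0.7 mM and 3 at both 1.4 and 2.1 mM, 8 in the F test, and 31, 46, 41, 36, 47, 37 and 18 list genes from 0.14 to 3.5 mM (0, 16, 12, 23, 27, 22 and 10 without weights), as well as 22330 probe sets at 0.35 mM, against 2898; the cause was not tested.

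Leaving out each array in turn gave 0 to 2 members at 0.35 mM, 0 to 1 at 0.7 mM, 1 to 2 at 1.4 and 2.1 mM, 2 to 3 at 2.8 and 3.5 mM, 2 to 5 at 3.5 against 2.8 mM and 3 to 6 in the F test. Without replicate 3 of 0 mM there were 2 members at 0.35 mM, 1 at 0.7 mM and 2 at both 1.4 and 2.1 mM, and without replicate 2 of 0 mM 2 at both 1.4 and 2.1 mM. Without replicate 2 of 0.35 mM there were 0 at that dose, and without replicate 3 of 1.4 mM 2 at that dose. The step from 2.8 to 3.5 mM had 2 without replicate 2 or 3 of 2.8 mM or replicate 1 or 2 of 3.5 mM. This alternative was added for the lists, as were the medians without replicate 1 of 0 mM, after seeing the data, and gave 0 to 1, 5 to 20, 6 to 12, 15 to 25, 18 to 30, 15 to 25 and 8 to 15 list genes from 0.14 to 3.5 mM. At 0.35 mM there were 5 without replicate 2 and 8 without replicate 1 of that dose, and 8 and 9 without replicates 2 and 4 of 0 mM. At 0.7 mM there were 7 without replicate 4 of 0 mM or replicate 1 of 0.7 mM and 6 without replicate 2 of 0.7 mM, and at 1.4 mM 15 without its replicate 1. Of 84 pairs of arrays with the same replicate number at different doses, 19 correlated above 0.1 in their residuals (median -0.03, from -0.70 to 0.56). Pairs of different number were not examined, so this cannot exclude that replicate numbers pair the arrays. As a block, the replicate number left every count of members as it was and gave 8 list genes at 0.35 mM and 6 at 0.7 mM. Over all probe sets the block gave 950 calls at 0.35 mM and 3990 at 2.1 mM, against 2898 and 6015 without it. The limits are 3 arrays a dose, 0 mM arrays that differ among themselves, and a control level that rises with dose.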
